A study of Mus musculus with 9 samples.

Results

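The intermediate progenitors described here are 685 of 19686 cells kept from the neocortex of mouse embryos at E18.5. They were chosen by detection: a cell was taken when it held a transcript of *Eomes* and of at least 1 of 5 companion genes (*Neurog2*, *Neurog1*, *Mfap4*, *Gadd45g* and *Sstr2*), no transcript of *Gad1* or *Gad2*, and fewer than 3 of the 6 cycling genes *Top2a*, *Mki67*, *Cenpf*, *Ube2c*, *Ccnb1* and *Nusap1*. Cells with more than 1% of their transcripts from haemoglobin genes had been left out first, from 22147 cells deposited. Each of 9 mice gave 1 single-cell library, and 5 of these are labelled wildtype (WT) and 4 *Tcf4* knockout (KO), from male and female littermates of the Tcf4ex4WT/lacZ line, in which a *lacZ* cassette before exon 4 disrupts the longest TCF4 isoform and leaves shorter ones, with both alleles targeted in the KO. Transcripts were counted by unique molecular identifiers (UMIs) read from the 3′ end. WT replicates 2, 3 and 4 (WT2, WT3 and WT4) were compared with KO replicates 4 and 5 (KO4 and KO5), which together hold 588 of the progenitors among 15479 kept cells. Values below stand in the order WT2, WT3, WT4 for WT and KO4, KO5 for KO.

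Intermediate progenitors, also called basal progenitors, arise from radial glia at the ventricle, move to the subventricular zone and divide there, mostly into pairs of glutamatergic neurons. The T-box factor EOMES (TBR2) marks this step, after PAX6 of the radial glia and before TBR1 of the postmitotic neuron. The proneural factor NEUROG2 starts the neuronal programme as a dimer with an E-protein, the family to which TCF4 belongs, and such dimers bind E-box sequences in DNA. By E18.5 most cortical neurons have been born, so this pool is in its last phase.

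The regulatory start of 3 genes is shown because 2 of them chose the cells and the third was lower in the KO progenitors. The sequences are the 250 bases before the start site in RefSeq on GRCm38.p6, 5′ to 3′ on the + strand: *Eomes* at chr9:118477939-118478188, *Gadd45g* at chr13:51846425-51846674 and *Sema3c* at chr5:17574566-17574815. Capitals mark 2 E-box forms searched on both strands, CAGATG (the same as CATCTG on the other strand) and CAGCTG.
Eomes: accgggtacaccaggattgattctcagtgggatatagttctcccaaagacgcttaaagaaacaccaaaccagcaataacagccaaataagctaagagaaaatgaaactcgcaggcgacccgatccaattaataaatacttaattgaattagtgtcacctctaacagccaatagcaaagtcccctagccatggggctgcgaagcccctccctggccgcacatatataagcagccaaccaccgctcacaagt
Gadd45g: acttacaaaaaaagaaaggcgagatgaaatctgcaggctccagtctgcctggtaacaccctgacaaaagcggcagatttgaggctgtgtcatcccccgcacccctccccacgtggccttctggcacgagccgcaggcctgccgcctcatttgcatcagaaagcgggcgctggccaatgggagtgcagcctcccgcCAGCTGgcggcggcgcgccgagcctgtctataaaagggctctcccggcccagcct
Sema3c: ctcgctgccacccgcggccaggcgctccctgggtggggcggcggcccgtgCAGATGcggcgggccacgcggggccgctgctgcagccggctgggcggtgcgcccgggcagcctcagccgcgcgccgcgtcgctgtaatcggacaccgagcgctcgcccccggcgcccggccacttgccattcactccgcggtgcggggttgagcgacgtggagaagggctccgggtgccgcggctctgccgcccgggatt
The *Eomes* window held neither form, that of *Gadd45g* held 1 CAGCTG and that of *Sema3c* 1 CAGATG. In GENCODE vM21 *Sema3c* starts at 17574281, so by that annotation its window lies inside the gene. Of 32851 promoters searched, 14.4% held CAGATG and 13.0% CAGCTG. Among genes with a promoter searched, CAGATG was held by 18 of 124 called lower in the KO progenitors (14.5%) and 7 of 81 called higher (8.64%). Of all such genes tested, 11.2% held it. For CAGCTG the shares were 13.7% of those called lower, 11.1% of those called higher and 13.3% of all tested. Such a match is a description of these letters only.

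The libraries differed in depth and background before any gene was compared. Median UMIs per progenitor were 2614 in WT2, 3458.5 in WT3 and 4443 in WT4, against 2577 in KO4 and 2406 in KO5 (exact 2-sided permutation test over libraries, p = 0.2, where 3 against 2 libraries cannot go below 0.1). Haemoglobin transcripts made up a mean of 0.0469 to 0.0871% of UMIs in WT progenitors, 0.248% in KO4 and 0.675% in KO5. KO5 held 0 UMIs of *Xist* and 545 of 4 Y-linked genes and the other 8 libraries 0 of the latter, so sex was not balanced. At most 46 cell barcodes were shared by any 2 libraries. The part of depth, background and sex in the results below was not tested, except where values of thinned cells are given.

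*Tcf4* itself was measured first. Its level in the progenitors, as UMIs per 10000 of each cell averaged over its library (the unit of all levels below), was 15.2 in WT2, 16.2 in WT3, 16.6 in WT4, 11.3 in KO4 and 6.80 in KO5. The WT values lay above both KO values, and the log2 difference of (level + 1) was -0.80 (standard error 0.19, adjusted p = 0.0142 from limma across all genes). *Tcf4* was not called by edgeR (adjusted p = 0.193) or DESeq2 (adjusted p = 0.303), nor without KO5 (-0.47, adjusted p = 0.576) or WT2 (-0.83), nor with the replicate number as a block (-0.31, adjusted p = 0.705). Reads from the 3′ end do not cover exon 4, so this level does not check the allele. In the 4 libraries not compared, it was 5.56 in WT1, 18.6 in KO1, 12.4 in KO2 and 7.57 in the library labelled WT replicate 5, so WT1, WT5 and KO1 went against their labels. The study's methods also leave out a WT animal with less *Tcf4* than the KO.

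Fewer cells met the definition in the compared KO libraries, but not in every pair of libraries with the same number. The share of kept cells was 4.98% in WT2, 8.29% in WT3 and 3.81% in WT4, and 2.83% in KO4 and 1.78% in KO5 (95% Wilson intervals of 3.88 to 6.37, 7.04 to 9.73, 3.36 to 4.31, 2.37 to 3.38 and 1.32 to 2.41%, which cover counting error only). Each of the WT values lay above both KO values, at 5.69% ± 2.32 (SD, n = 3) and 2.31% ± 0.744 (SD, n = 2), with an exact permutation p of 0.2. After each cell had been thinned to 1800 UMIs the shares were 4.48, 5.32 and 2.53% in WT and 1.79 and 1.22% in KO (exact permutation p = 0.2). The other libraries did not follow their labels, with 1.02% in WT5, 13.3% in KO1 and 9.32% in KO2, and 5 cells of 127 in WT1. Set side by side by number, which the labels do not call pairs, the share was higher in KO for 2 (4.98 and 9.32%) and 5 (1.02 and 1.78%). It was lower for 4 (3.81 and 2.83%). Without the haemoglobin filter the means were 5.66% in WT and 2.22% in KO. The filter removed 22 cells of KO4, 19 of KO5, 3 of WT4 and 0 of WT2 and WT3 that met the definition otherwise.

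**Figure D1:**
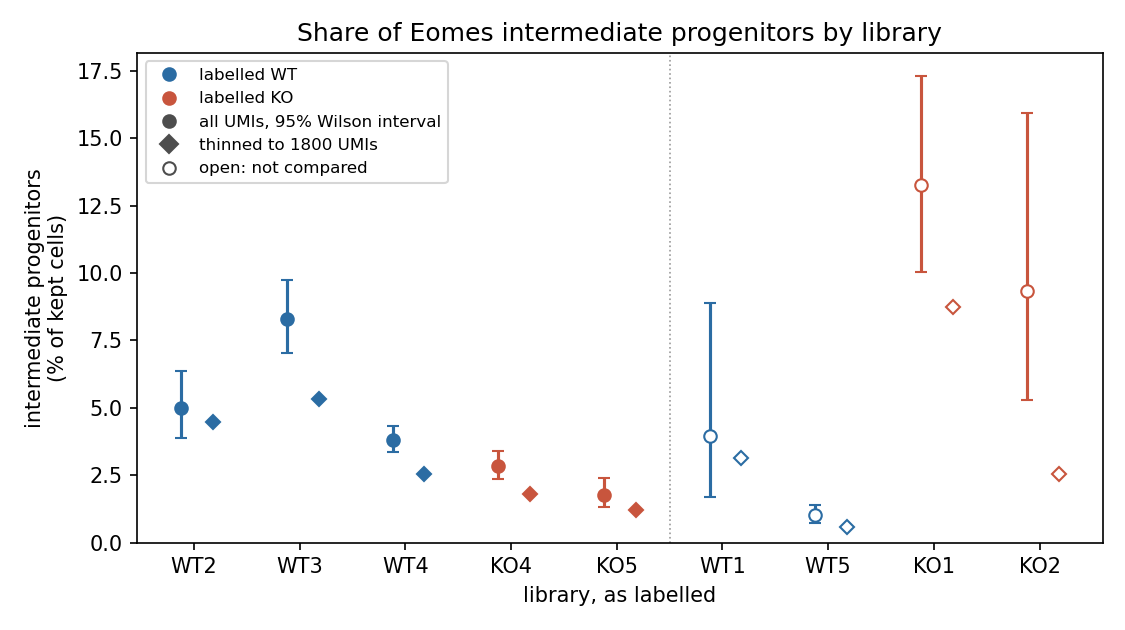
Share of kept cells that met the definition of intermediate progenitors (y axis, percent) in each library as labelled (x axis). Circles are shares from all UMIs with 95% Wilson intervals, diamonds shares after thinning to 1800 UMIs, and open symbols libraries not compared; the 3 WT shares of 3.81 to 8.29% sit above the KO shares of 1.78 and 2.83%, and KO1 stands highest at 13.3%.

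The definition rests on transcripts that are few per cell, so it was described how often *Eomes* and its companions occurred together. Among cells without *Gad1* or *Gad2* and outside the cycle, a companion was detected in 77.6% of *Eomes* cells against 26.2% of cells without *Eomes* in WT2, in 85.9 against 39.8% in WT3 and in 76.1 against 32.6% in WT4. In KO4 these values were 52.9 against 24.0%, and in KO5 38.3 against 26.4%. In the library labelled WT5 they were 25.9 against 20.4%. If the genes had been detected independently, 23.1, 70.6 and 110.7 cells would have met the definition in WT2, WT3 and WT4 instead of 59, 134 and 235. In KO4 the number was 58.3 against 119 found, in KO5 28.9 against 41, and in WT5 29.6 against 37. Deeper cells detect both genes more often, so the shares were also taken at 1800 UMIs per cell. They were 80.3 against 19.8%, 81.1 against 28.0% and 69.0 against 17.9% in WT, 44.6 against 19.5% in KO4, 32.6 against 21.3% in KO5 and 18.4 against 16.4% in WT5. These genes made the rule, so the values describe the selection and do not test the name. Of genes outside the rule, the summed level of the 29 other intermediate progenitor genes was 2.07 to 2.29 times that of other cells in WT, 1.18 and 1.496 times in KO and 1.14 times in WT5. As a measure of free RNA, *Eomes* was detected in 4 of 98 endothelial- and microglia-type cells of WT4 (4.08%), 4 of 97 of KO4 (4.12%) and 0 of 18 of KO5 (which allows a share of up to 17.6% by the Wilson interval).

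**Figure D2:**
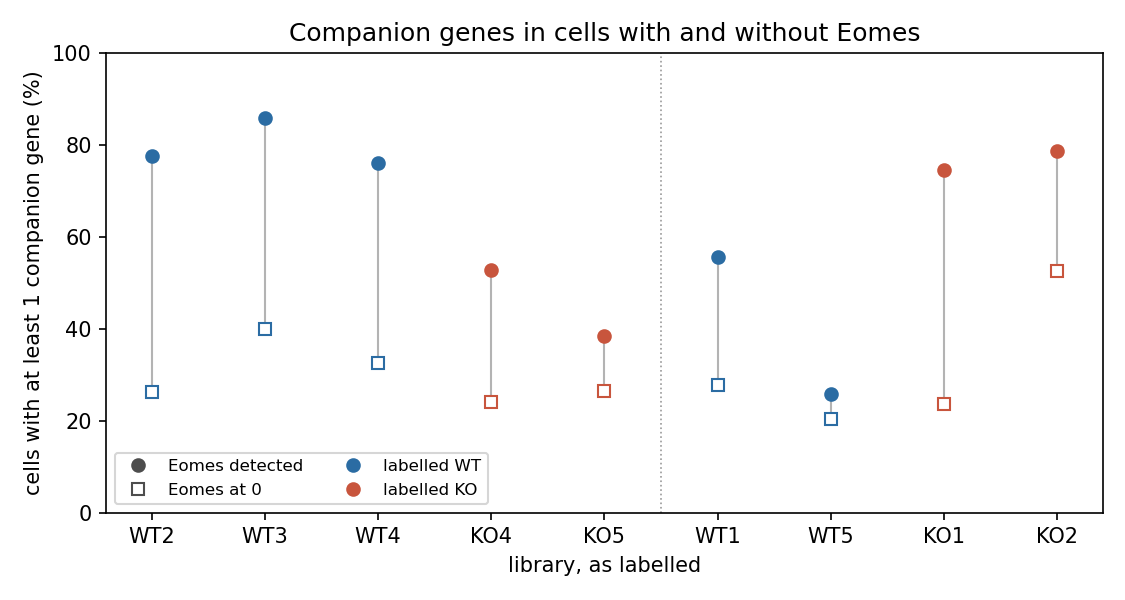
Share of cells with at least 1 of the 5 companion genes (y axis, percent) in each library (x axis), for cells with *Eomes* (filled circles) and with *Eomes* at 0 (open squares), joined by a line. The step is long in WT2, WT3 and WT4 (from 26.2 to 77.6% in WT2), shorter in KO4 and short in KO5 (26.4 to 38.3%) and WT5 (20.4 to 25.9%).

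The cells that met the definition were also thinner in their own markers in the KO. More than 1 UMI of *Eomes* was found in 55.9% of progenitors of WT2, 53.7% of WT3 and 52.8% of WT4, and in 17.6% of KO4 and 7.32% of KO5. At least 2 companions were found in 72.9, 67.2 and 62.6% in WT, and in 46.2 and 22.0% in KO. Cells with the least that the rule allows, 1 UMI of *Eomes* and 1 companion, made up 15.3, 23.9 and 24.7% in the WT libraries, 49.6% in KO4 and 73.2% in KO5. These measures come from the genes of the rule and are a description without a test. At the edge of the rule, cells with 2 of the cycling genes numbered 3, 14 and 20 in WT against 20 and 5 in KO, and those just outside, with 3 of them, 2, 4 and 13 against 9 and 4. All cells with 3 or more, the cycling *Eomes* cells, made up 25.3, 17.3 and 13.6% of cells with *Eomes* and a companion in the WT libraries and 13.1 and 14.6% in the KO libraries.

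The genes of the rule differed in level among the progenitors. *Eomes* (chromosome 9, 118478212 to 118486132 in GENCODE vM21 on GRCm38) had a level of 7.14, 5.67 and 6.05 in WT and of 4.60 and 4.41 in KO. *Neurog2*, the proneural factor (chromosome 3, 127633135 to 127635631), had 7.63, 7.99 and 5.54 in WT and 3.67 and 2.099 in KO. *Sstr2*, a somatostatin receptor, had 2.299, 3.43 and 2.86 in WT and 1.38 and 0.903 in KO. *Mfap4*, an extracellular matrix protein, had 2.65, 1.89 and 2.61 in WT and 1.10 and 0.896 in KO. *Gadd45g*, a stress and growth arrest gene, had 3.41, 2.56 and 1.74 in WT and 2.57 and 1.94 in KO, and was the only one of these 5 whose genotypes overlapped. *Neurog1* was at 0 in all libraries except WT4, so the group in practice was chosen by 4 companions.

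Set against all other kept cells, the progenitors were higher in some genes of radial glia and some of neurons. Apart from the genes of the rule, the 12 genes highest in the progenitors were, in order of the mean log2 ratio over the 5 libraries, *Mdk*, *Pax6*, *Pam*, *Fam210b*, *Elavl4*, *Lzts1*, *Mfap2*, *Elavl2*, *Zbtb20*, *Dbi*, *Vim* and *Pcp4*, each higher in all 5 libraries. *Mdk*, the secreted growth factor midkine, led with a log2 ratio of 1.39 ± 0.65 (SD over 5 libraries), and *Pax6*, the transcription factor of radial glia, followed with 1.33 ± 0.28. *Lzts1*, which takes part in the delamination of basal progenitors, had 0.97 ± 0.32, and *Elavl4* and *Elavl2*, neuronal RNA-binding proteins, 1.07 ± 0.49 and 0.81 ± 0.48. Radial glia-type cells lacked *Eomes* and held at least 3 of *Slc1a3*, *Aldoc*, *Fabp7*, *Hes5*, *Pax6* and *Sox9*. The ratio of *Pax6* to them follows partly from this selection. Against these cells, *Pax6*, *Dbi* and *Vim* turned to -0.29 ± 0.36, -0.91 ± 1.07 and -0.69 ± 0.88. *Pax6* was higher in the progenitors in WT4 only. *Dbi* and *Vim* were lower in the WT libraries but higher in KO4 and KO5. *Elavl4*, *Elavl2* and *Pcp4* kept 1.34 ± 0.74, 1.32 ± 0.95 and 1.29 ± 1.01, with *Elavl2* lower in KO5. Among the lowest were *Mef2c*, *Ntm*, *Ly6h*, *Runx1t1*, *Meg3*, *Gpr85* and *Sptbn1*, lower in all 5 libraries, from *Mef2c*, a factor of maturing neurons, at -1.28 ± 0.90 to *Sptbn1*, a spectrin, at -0.90 ± 0.17.

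The contrast with other cells was itself smaller in the KO libraries for 8 of the 12 higher genes and larger or alike for *Pax6*, *Fam210b*, *Dbi* and *Vim*. *Mdk* was 3.37-fold above other cells in WT and 1.78-fold in KO, *Zbtb20* 2.15-fold and 1.28-fold, and *Pcp4* 2.097-fold and 1.13-fold (geometric means of the libraries). *Pax6* was 2.51-fold above in both. *Mef2c* was at 0.265 of its level in other cells in WT and at 0.792 in KO. These ratios share the cells that the rule divided and carry no test.

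Within the progenitors, cells with *Neurog2* but no *Sstr2* differed from cells with *Sstr2* but no *Neurog2* in several stage genes. Both genes serve the rule, and an order among the cells was not tested. The *Neurog2* and the *Sstr2* cells numbered 20 and 13 in WT2, 32 and 37 in WT3 and 51 and 71 in WT4. In KO4 they numbered 51 and 19, and in KO5 16 and 7. *Pax6* had a level of 2.27 ± 0.284 (SD, n = 3) in the *Neurog2* cells of the WT libraries and 0.850 ± 0.530 in their *Sstr2* cells. *Hes6*, a partner of the proneural factors, had 4.03 ± 1.08 and 1.95 ± 0.240. On the neuronal side *Neurod1*, which acts after *Neurog2*, had 1.45 ± 0.803 and 4.08 ± 0.420. *Unc5d*, a netrin receptor of multipolar newborn neurons, had 0.881 ± 0.398 and 2.80 ± 0.201, and *Tubb3*, the neuronal tubulin, 12.04 ± 0.302 and 21.1 ± 0.449. The *Sstr2* cells were thus lower in *Pax6* and *Hes6* and higher in *Neurod1*, *Unc5d* and *Tubb3* in each WT library. These 5 genes are examples from a longer list. The progenitor gene *Insm1* had no common direction, with 1.05, 1.14 and 1.10 in the *Neurog2* cells and 1.12, 0.665 and 1.14 in the *Sstr2* cells. In the KO libraries *Pax6* had a step in the same direction, from 2.04 to 0.297 in KO4 and from 2.08 to 0.581 in KO5. *Neurod1* had no such step there, with 0.812 and 0.609 in KO4 and 1.01 and 0.586 in KO5, nor had *Unc5d*, with 0.280 and 0.4004 in KO4 and 0.237 and 0 in KO5. *Hes6* had 1.56 and 2.23 in KO4, opposite to WT, and 2.18 and 0 in KO5, and *Tubb3* 12.6 and 15.8 in KO4 and 15.2 and 21.0 in KO5. With 7 to 19 *Sstr2* cells in the KO libraries, such levels rest on few transcripts.

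The share of progenitors with a transcript of a stage gene was compared after thinning to 1800 UMIs. *Btg2*, an antiproliferative gene of neurogenic divisions, was found in 20.0% ± 5.96 in WT and 7.48% ± 3.68 in KO, and *Neurod1* in 27.3% ± 6.15 and 12.5% ± 7.30, without overlap of the genotypes. *Pax6* was found in 19.6 and 17.7%, *Insm1*, a zinc-finger factor of delaminating progenitors, in 18.1 and 15.7%, and *Neurod6*, a neuronal bHLH factor, in 68.0 and 64.5%, each with overlap. Exact permutation p over 3 against 2 libraries were 0.1, 0.2, 0.8, 0.4 and 0.7 in this order, and 0.5, 0.5, 0.8, 0.667 and 0.8 after Benjamini-Hochberg adjustment over the 5 genes, so no difference passed. Before thinning, the means in WT and KO were 35.0 and 13.3% for *Btg2*, 44.3 and 19.8% for *Neurod1*, 35.0 and 22.4% for *Pax6*, 31.7 and 18.6% for *Insm1* and 83.0 and 75.2% for *Neurod6*, without overlap for any of the 5. The KO cells also held fewer UMIs.

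Levels were then compared gene by gene between KO and WT progenitors with limma on log2(level + 1), where a gene is called at an adjusted p below 0.05. Of 8908 genes, 281 (3.15%) were called, 118 higher (1.32%) and 163 lower (1.83%) in the KO, and 1683 had an unadjusted p below 0.05. No called gene overlapped between the genotypes, as 11.7% of all genes lay above and 24.4% below in both KO libraries. The 281 include 4 genes of the rule, which are not read as tests. They also include *Hbb-bs*, which served the haemoglobin filter and is not read as a test either. Scaling the summed UMIs by TMM gave 97 higher and 49 lower, edgeR 80 and 30 (1.23% called, 0.337% lower), and DESeq2 54 and 8 (0.696% called, 0.0898% lower). The split also turned under the main scaling, to 43 and 9 without KO5, 54 and 46 without WT3 and 20 and 3 with no filter on level. Each gene named below as called had the same direction by edgeR and DESeq2, and the median over all genes was -0.05, -0.03 with TMM and -0.06 with edgeR. With at least 2 companions 2.22% were called and 1.23% lower, after thinning 1.89 and 1.01%. Without KO5, 52 genes were called (0.612%, with 0.106% lower), and with WT5 added as labelled, 0 (701 at an unadjusted p below 0.05). The fit with the replicate block can use numbers 2, 4 and 5 of each genotype only, so it leaves out WT3 and adds WT5 and KO2. It called 6 (0.0642%, with 2 or 0.0214% lower), 4 of them among the 281, and the same libraries without the block gave 0 (507 at an unadjusted p below 0.05), so a call lost in that fit cannot be put down to the block. Newborn-type and all other cells gave 3.31 and 1.17% called.

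The 8 largest rises were *Hbb-bs*, *Actb*, *Ncam1*, *Clasp2*, *Mef2c*, *Runx1t1*, *Abhd2* and *Dpysl2*, and all of them were called by edgeR, DESeq2, after thinning, with at least 2 companions and without KO5. *Actb*, cytoplasmic actin, had 36.0, 49.6 and 34.5 in WT and 160.1 and 161.9 in KO, a log2 difference of 1.999 (standard error 0.20, adjusted p = 9.36e-08 from limma). *Ncam1*, a neural adhesion molecule, had 2.34, 2.67 and 3.36 in WT and 13.0 and 14.6 in KO, a difference of 1.98 (standard error 0.17, adjusted p = 8.17e-09). *Clasp2*, which stabilises growing microtubules, had 0.644, 0.675 and 0.699 in WT and 4.06 and 5.04 in KO, with a difference of 1.73. *Mef2c* had 2.21, 1.06 and 2.22 in WT and 7.03 and 9.13 in KO, with a difference of 1.70. *Runx1t1*, a corepressor, *Abhd2*, a lipid hydrolase, and *Dpysl2*, the collapsin response mediator CRMP2, rose by 1.52, 1.45 and 1.39. *Hbb-bs*, adult beta-globin and a blood transcript, had 2.45 to 4.25 in WT and 13.6 and 31.8 in KO (2.34), together with the haemoglobin background above. Haemoglobin genes served the filter on cells, so this rise is described and not read as a test. The same rises were present outside the progenitors, at 0.93 to 2.45 in newborn-type cells and 0.50 to 2.51 in all other cells. With the replicate block, *Abhd2* alone of the 8 was called (adjusted p = 0.0402), and the others had adjusted p up to 0.879.

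The 8 largest falls were *Zbtb20*, *Igfbpl1*, *Mdk*, *Itm2b*, *Elavl2*, *Nfib*, *Ezr* and *Igsf8*. *Zbtb20*, a zinc-finger repressor of hippocampal and late cortical progenitors, had 12.3, 8.80 and 12.4 in WT and 3.67 and 1.99 in KO, a log2 difference of -1.69 (standard error 0.19, adjusted p = 8.18e-07 from limma). *Igfbpl1*, a binding protein-like gene of newborn neurons, had 26.6, 27.0 and 26.3 in WT and 12.3 and 8.83 in KO, with -1.28. *Mdk*, which led the genes of the progenitors above, had 6.72, 9.75 and 7.86 in WT and 4.10 and 1.87 in KO, with -1.24. *Nfib*, a nuclear factor I protein of corticogenesis, had 16.7, 18.47 and 17.0 in WT and 10.1 and 6.27 in KO, with -1.03. *Ezr*, the membrane-to-actin linker ezrin, had 2.67, 2.28 and 1.96 in WT and 0.851 and 0.419 in KO, with -1.02. *Itm2b*, *Elavl2* and *Igsf8* fell by 1.18, 1.06 and 1.02. In newborn-type cells the 8 differences ran from -1.23 to -0.18. All 8 were called with at least 2 companions and after thinning, 7 by edgeR (*Elavl2* had an adjusted p of 0.0528), 4 by DESeq2, and 2, *Zbtb20* and *Itm2b*, without KO5. None was called with the replicate block (adjusted p of 0.0841 to 0.919).

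**Figure D3:**
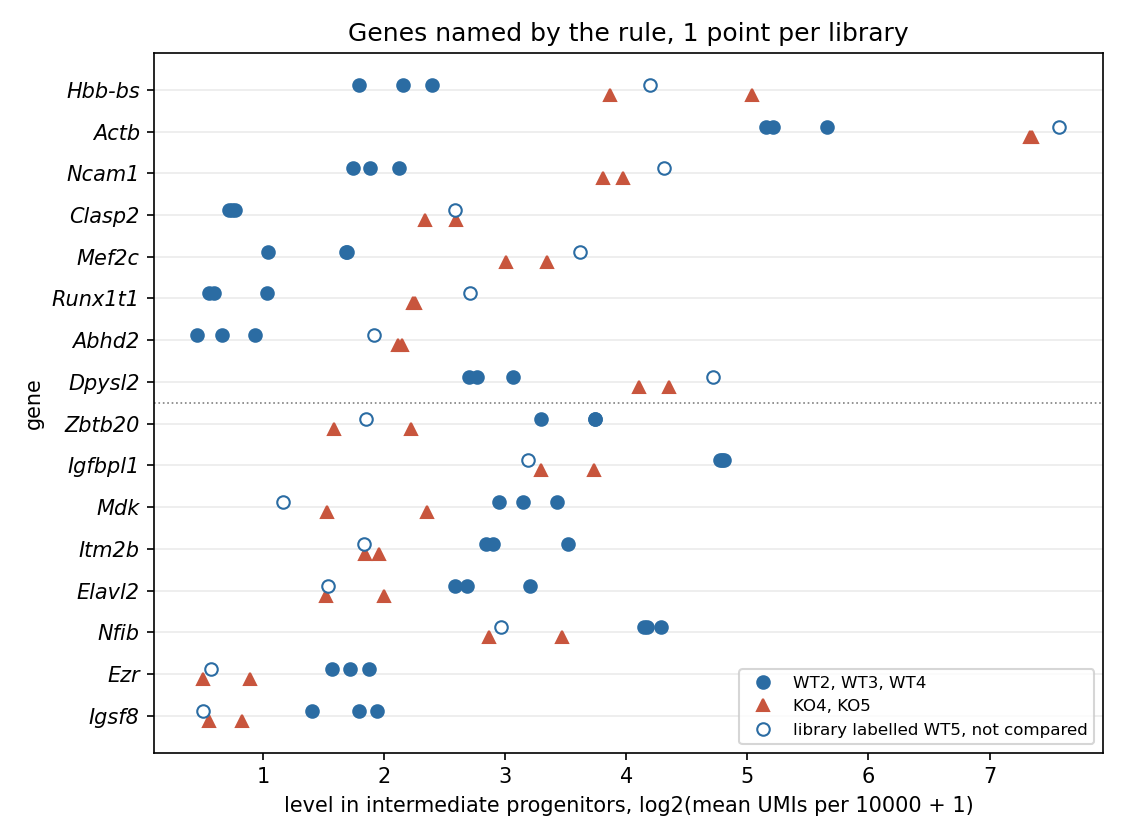
Level of the 16 genes with the largest rises and falls in the progenitors, as log2(mean UMIs per 10000 + 1) (x axis), with 1 point per library for each gene (y axis; 8 rises above the dotted line, 8 falls below). WT2, WT3 and WT4 are filled circles, KO4 and KO5 triangles, and the open circle is the library labelled WT5, which lies on the KO side for all 16.

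Genes known from intermediate progenitors were mostly lower in the KO. Of 27 tested genes of this list outside the rule, 12 were called lower and 1 higher, with a median log2 difference of -0.45, beside 1.83% called lower and a median of -0.05 over all genes tested. The 12 were *Elavl2*, *Ezr*, *Igsf8*, *Elavl4*, *Chd7*, *Nrn1*, *Afap1*, *Tac2*, *Btg2*, *Rnd2*, *Mfng* and *Slc17a6*, and the single rise was *Tmem158* (0.56, adjusted p = 0.0374 from limma). *Chd7*, a chromatin remodeller, had 1.32, 1.09 and 1.28 in WT and 0.356 and 0.0773 in KO, a difference of -0.88 (adjusted p = 6.76e-04). *Tac2*, a tachykinin precursor, had 1.21, 0.248 and 0.768 in WT and 0 in both KO libraries. As a floor, 3 UMIs over the 459644 of the KO progenitors would be 0.0653. The WT level of 0.587 over summed UMIs was 8.99-fold this floor. That ratio pools cells and animals and covers counting only, so it is not a lower limit on the genotype difference. WT3, at 0.248, stood closer to the floor. *Btg2* had 1.20, 1.94 and 1.07 in WT and 0.646 and 0.353 in KO. *Insm1* had 1.04, 0.989 and 1.02 against 0.811 and 0.882, *Hes6* a difference of -0.45 and the Notch ligand *Dll1* one of 0.06, none of them called. EdgeR called 5 of the 12, DESeq2 1, and limma 8 in cells with at least 2 companions, 10 after thinning, 1 without KO5 and 0 with the replicate block. The list was assembled with earlier results of these data known, and the smaller share of KO cells with 2 companions moves with it.

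**Figure D4:**
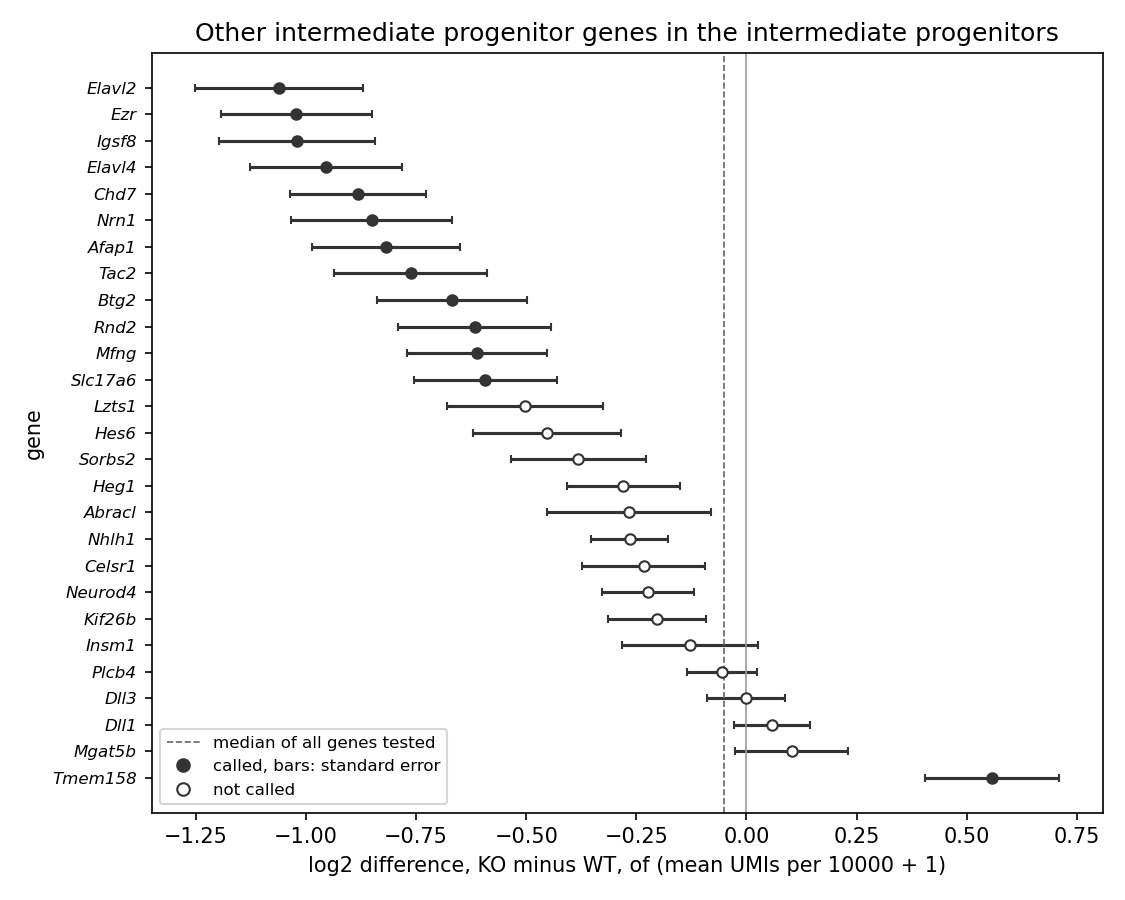
Log2 difference in level, KO minus WT, of the 27 tested intermediate progenitor genes outside the rule (y axis) with its standard error (x axis), filled where called. 24 of the 27 lie below 0 and the median is -0.45, while the dashed line marks the median of all genes tested, -0.05.

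Some markers of newborn neurons were lower as well, while other neuronal genes such as *Stmn2* and *Mef2c* were higher. Of 8 tested newborn neuron markers, 3 were called lower and 0 higher, with a median of -0.45. Beside this, 1.83% of all genes tested were called lower and 1.32% higher, with a median of -0.05. *Unc5d* had 2.01, 2.06 and 1.74 in WT and 0.468 and 0.454 in KO, a difference of -1.01 (standard error 0.16, adjusted p = 0.000207 from limma), and *Neurod1* 2.17, 2.29 and 2.53 in WT and 0.831 and 0.733 in KO (-0.90, adjusted p = 0.00108). *Sema3c*, a secreted semaphorin, had 1.27, 2.09 and 1.67 in WT and 0.556 and 0.446 in KO (-0.82, adjusted p = 0.00342). All 3 were called by edgeR and after thinning. *Unc5d* and *Neurod1* were also called without KO5 and with at least 2 companions, while *Sema3c* was not (adjusted p = 0.0945 and 0.448), and none was called with the replicate block (0.379 to 0.750).

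Among the bHLH factors and their partners, the E-protein and Id list had 3 of 7 genes called lower and 0 higher, with a median of -0.56. The median of this list was -0.14 in newborn-type cells and -0.27 in all other kept cells. In the test of the difference from newborn-type cells, given below, 0 of 6 were called. For this and the next lists, the shares over all genes tested were 1.83% lower and 1.32% higher, with a median of -0.05. The 3 called lower were *Tcf4*, the targeted gene, *Tcf3*, which encodes the E-protein E47, and *Id2*, an inhibitor that binds E-proteins. *Id2* had 6.73, 8.82 and 7.36 in WT and 4.63 and 2.76 in KO (-0.90, adjusted p = 0.00401 from limma), and was called also with the replicate block (adjusted p = 0.0465). *Tcf3* had 0.945, 1.36 and 0.982 in WT and 0.578 and 0.261 in KO (-0.57, adjusted p = 0.0414). Of 18 Notch pathway genes, 2 were called higher, *Notch2* (1.30) and the Notch target *Hes1* (0.42), and 1 lower, the glycosyltransferase *Mfng* (-0.61), with a median of 0.05. Of 6 SoxC and SoxB factors and of 17 S phase genes, 0 were called, with medians of -0.08 and -0.12. Of 11 genes of G2 and M phase outside the rule, 1 was called higher (*Cks2*) and 0 lower, with a median of 0.21 and all 11 above 0. The summed level of the list was 3.96 to 6.60 in WT and 8.25 and 8.44 in KO. Its median was also above 0 in newborn-type cells, at 0.16, and was -0.16 in all other kept cells. In the test of the difference from newborn-type cells, 0 of 8 of these genes were called. Of 17 genes of G1 and cell cycle exit, *Cdkn1b*, the inhibitor p27, was higher (0.93) and *Cdk4* and *Btg2* lower (-0.84 and -0.67).

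Markers of other cells moved in both directions. The counts below stand beside 1.32% called higher and 1.83% called lower over all genes tested, with a median of -0.05. Of 14 radial glia markers, 3 were called higher and 0 lower, with a median of 0.20. The median of this list was 0.23 in newborn-type cells and -0.16 in all other kept cells. In the test of the difference from newborn-type cells, given below, 0 of the 14 were called. *Fabp7*, a lipid-binding protein of radial glia, had 9.10, 13.7 and 18.47 in WT and 25.9 and 28.4 in KO (0.98, adjusted p = 0.00543 from limma), and *Mt3*, a metallothionein, 2.35, 1.83 and 2.44 in WT and 5.40 and 6.06 in KO (1.07, adjusted p = 0.000207). *Mt3* was called with the replicate block (adjusted p = 0.0402) and with all libraries of at least 10 progenitors as labelled. The summed level of the 15 markers was 33.9 to 50.7 in the WT and 63.6 and 68.1 in the KO libraries. The 8 upper layer neuron markers had summed levels of 5.12 to 7.28 in WT and 13.3 and 16.5 in KO, with 2 called higher (*Mef2c* and *Ndrg1*) and 0 lower. The 9 deep layer markers had 3.66 to 6.42 in WT and 5.84 and 6.77 in KO, with 0 called, and the 11 markers of the ganglionic eminence and interneurons 1.34 to 1.96 in WT and 4.41 and 5.86 in KO, with *Npy* and *Sst* called higher and *Gad1* and *Gad2*, which define these cells, at 0 by the rule. Of the 6 microglia markers 0 reached the test, with summed levels of 0.0191 to 0.136 in WT and 0.201 and 0.619 in KO, and of the 5 endothelial markers 1 was called higher (*Igfbp7*), with 0.0221 to 0.313 in WT and 0.280 and 1.30 in KO. The 6 hippocampal markers summed to 9.15 to 13.2 in WT and 2.61 and 4.83 in KO, with *Zbtb20* called lower, and of 2 tested Cajal-Retzius markers 0 were called. Blood genes summed to 4.70 to 8.76 in WT and 24.8 and 67.7 in KO. Whether cells of these kinds, or free RNA from them, contribute to the KO progenitors was not tested. Of 19 genes that the study names in upper layer neurons, 4 were called lower, *Hnrnpk*, *Id2*, *Dcx* and *Nfib*, and 0 higher; the study chose this list on these samples, so it is not independent evidence.

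To see which changes went beyond those of newborn-type cells, the within-library difference between the progenitors and these cells was compared between the genotypes. Newborn-type cells had *Eomes* at 0 and at least 2 of *Unc5d*, *Sema3c*, *Neurod1* and *Nrp1*. Of 8171 genes, 39 were called (0.477%), 24 with a higher (0.294%) and 15 with a lower (0.184%) KO effect in the progenitors, and 938 had an unadjusted p below 0.05. Of these, 4 serve a gate (*Neurog2*, *Unc5d*, *Sema3c* and *Neurod1*) and are not read, which leaves 35. The 5 with the smallest p were *Stmn2*, *Chd7*, *Tuba1a*, *Map1b* and *Gabra2*. *Stmn2*, a microtubule regulator of growing neurites, was at 9.69, 4.44 and 9.10 in progenitors and 20.8, 12.7 and 19.4 in newborn-type cells of WT2, WT3 and WT4, and at 14.6 and 19.0 in progenitors and 19.2 and 21.7 in newborn-type cells of KO4 and KO5. The KO effect was 1.08 in the progenitors and 0.23 in newborn-type cells, a difference of 0.85 (standard error 0.10, adjusted p = 5.51e-04 from limma). *Chd7* was 0.933 to 1.03 above newborn-type cells on the log2 scale in WT and 0.102 and -0.265 in KO. This is a difference of -1.07 (standard error 0.14, adjusted p = 5.51e-04 from limma). Radial glia-type cells had *Chd7* at 0.480, 0.772 and 0.819 in WT and 0.181 and 0.145 in KO.

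The other 3 of these genes are neuronal, and each stood well below newborn-type cells in the WT progenitors and close to them in the KO. *Tuba1a*, an alpha-tubulin of young neurons, *Map1b*, a microtubule-associated protein, and *Gabra2*, a GABA-A receptor subunit, had differences of 0.61, 0.79 and 1.18. *Tuba1a*, *Map1b* and *Gabra2* were not called within the progenitors alone (adjusted p = 0.341, 0.0619 and 0.0664 from limma), so it is the step to the newborn-type cells that differed. Among the other called genes, *Tubb3*, *Tubb2a*, *Tubb2b*, *Mapt*, *Cntn2*, *Bcl11a*, *Mef2c* and *Ncam1* had a higher KO effect in the progenitors than in newborn-type cells. *Ccnd2*, the G1 cyclin of basal progenitors, *Mdk*, *Ezr* and *Zeb1* had a lower one. *Ccnd2* was not called within the progenitors (-0.66, adjusted p = 0.104 from limma). Against all other kept cells its difference had the opposite sign, 0.29 (adjusted p = 0.316 from limma). With at least 2 companions, *Ccnd2*, *Mdk*, *Ezr* and *Zeb1* were not called (adjusted p of 0.158 to 0.349 from limma). For *Gabra2*, *Cntn2*, *Bcl11a*, *Gria2* and *Tsc22d1* the newborn-type cells fell and the progenitors did not pass the test. *Gabra2* had -0.68 in newborn-type cells (adjusted p = 0.00454 from limma) and *Cntn2* -0.60 (0.0119) against 0.30 in progenitors. *Bcl11a* had -0.61 (0.0494) against 0.06, *Gria2* -0.59 (0.0471) against 0.06 and *Tsc22d1* -1.09 (0.00545) against -0.57. *Tubb3* had -0.44 in newborn-type cells and -0.0026 in progenitors, neither called. Measured against all other kept cells, 67 of 8172 genes were called (0.82%), 25 of them shared. With at least 2 companions 11 were called, 10 of them shared. Without KO5, with WT5 added or with the replicate block, 0 were called (592, 565 and 339 at an unadjusted p below 0.05).

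**Figure D5:**
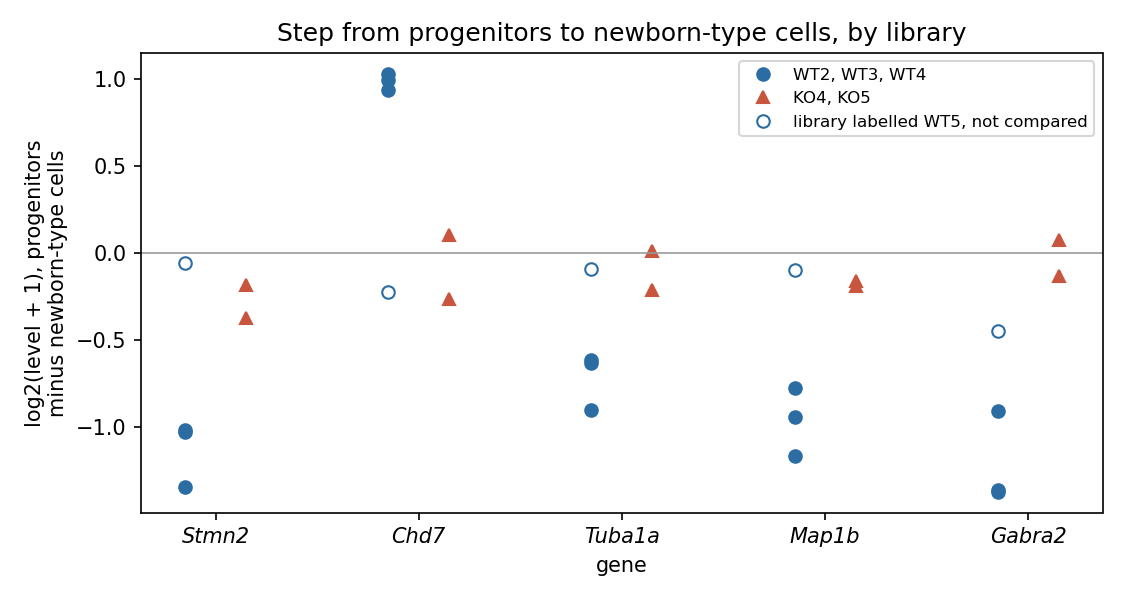
Level in progenitors minus level in newborn-type cells, on the log2(level + 1) scale (y axis), for the 5 genes with the smallest p of the difference test (x axis), 1 point per library. WT2, WT3 and WT4 (filled circles) lie from 0.933 to 1.03 for *Chd7* and below -0.6 for the other genes, while KO4 and KO5 (triangles) and the library labelled WT5 (open circle) lie nearer to 0.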

How the data were processed

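Cells of E18.5 neocortex were counted by the authors with Cell Ranger on GRCm38 and filtered with Seurat 2.3.4, per the submitters' processing notes. WT4, WT5 and both compared KO libraries were deposited as raw UMI counts. The rest were deposited on a natural log scale, ln(1 + UMIs per 10000), from which whole UMIs came back for 100% of values (tolerance 1e-06). The deposited libraries held 348105 to 29767293 UMIs.

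Levels are means over cells of UMIs per 10000. Genes averaging 0.1 or more in 2 libraries were compared on log2(level + 1) by limma-trend with robust variances (limma 3.58.1, R 4.3.3), Benjamini-Hochberg adjusted; edgeR 4.0.16 and DESeq2 1.42.0 on summed UMIs were alternatives. Single values were compared by exact 2-sided permutation. In simulated data limma recovered 43% of genes changed by a log2 of 1 and 93% of those changed by 2 in 8908 genes. The changed genes were drawn only from those with more counts, with a fixed dispersion and no difference in background between libraries. These rates are therefore not a sensitivity over all genes tested. No doublet caller was run.

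Named genes were, among called genes outside the rule with at least 50 UMIs and no overlap, the 8 largest rises and falls; the 12 highest and 8 lowest against other cells, at a level of at least 1; and the 5 smallest p of the difference test. Haemoglobin genes, which served the filter on cells, were not counted among the genes of the rule in this choice. The members and lists were chosen with earlier results of these data known. Same-numbered libraries deviated together over 1627 genes (r = 0.401 for WT2 with KO2, 0.192 for WT4 with KO4 and 0.366 for WT5 with KO5). Unlike numbers had r from -0.341 (WT5 with KO2) to 0.132 (WT5 with KO4). The labels do not say that equal numbers are pairs. The numbers served as a block in an alternative fit, whose values stand beside the genes. The main tests and the stage-gene shares were not paired. *Neurog1*, below the limit on level, was not compared. One gene that the rule names is not reported here.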

Additional observations from a re-analysis of the deposited data

Results flagged for a closer look

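Of 64 groups of values, taken as labelled (5 WT or 4 KO libraries), 8 held a library far from the others. Chance alone flags about 1 in 20 of independent groups. These groups share libraries and include genes named from these data, so the count cannot be set against that rate. The library labelled WT replicate 5 was highest of the WT in progenitor *Ncam1* (18.9, next 7.07), *Mef2c* (11.3, next 2.22) and *Stmn2* (23.3, next 9.69), and lowest in *Nfib* (6.78, next 16.7) and *Chd7* (0, next 1.09). KO1 was lowest of the KO in *Abhd2* (0.647, next 3.01) and highest in *Chd7* (1.93, next 0.356). In KO2, with 11 progenitors, a companion was found in 52.5% of cells without *Eomes*, against 23.6 to 26.4% in the other KO libraries.

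The KO effect differed between progenitors and newborn-type cells for *Stmn2* (0.85), *Chd7* (-1.07), *Tuba1a* (0.61), *Map1b* (0.79) and *Gabra2* (1.18 on the log2 scale), by limma on the difference itself, as given above.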

How the results depend on the processing

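The count of 281 genes became 23 with no filter on level (20 higher, 3 lower), 138 with a mean of at least 0.5 in every library, 146 with TMM scaling, 165 after thinning, 110 and 115 with edgeR (TMM and RLE), 62 with DESeq2, 6 with the replicate block (0 for the same libraries unblocked), 2 with all libraries of at least 10 progenitors, 0 with WT5 added and 99 without KO5 in cells with at least 2 companions, an alternative added after the data were seen, as was leaving the rule genes out. Leaving out 1 library gave 52 (without KO5) to 523 (without KO4), with 100 without WT3 and 117 without WT2. The 39 genes of the difference test became 0 with no filter, WT5 added or the block (added after the data were seen), 19 with TMM, 11 with at least 2 companions and 67 against all other cells, and 0 (without KO5) to 206 (without KO4) with 1 library left out. The 12 progenitor genes called lower became 0 with no filter, WT5 added, all libraries or the block, 1 with DESeq2, 2 with the stricter filter, 5 with either edgeR scaling or without KO5 in cells with 2 companions, and 7 with TMM, and 1 (without KO5) to 12 with 1 library left out (7 without WT3, 8 without WT2).

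*Tcf4* kept its direction throughout, and was not called with no filter (-0.80), TMM (-0.72), WT5 added (-0.55), all libraries (-0.18), the replicate block (-0.31), edgeR (-0.65 and -0.64) or DESeq2 (-0.64), or without KO5 in cells with 2 companions (-0.35). Without 1 library it ranged from -1.12 to -0.47. With all 9 libraries as labelled, the share of progenitors was 2.39 percentage points higher in KO (exact permutation p = 0.413). Without WT3 the thinned difference of *Pax6* was 0.967 and of *Neurod6* 1.23 percentage points (from -3.67 to 0.967 and -9.92 to 1.23 over the libraries left out), each opposite to the main one. *Tuba1a* turned to -0.044 in the difference test with the block. Of the 12 genes higher than in other cells, 7 were higher than in cycling *Eomes* cells. The causes were not tested. Depth limits detection: 41 cells of KO5 gave 106892 UMIs.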

Other observations

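The library labelled WT5 was left out of the main comparison and entered some alternatives. It lay below WT2, WT3 and WT4 for 151 of the 163 genes called lower in the KO progenitors, against 45.6% of all genes tested, and above them for 110 of the 118 called higher, against 24.0%. Its 37 progenitors, of 3630 kept cells, had *Actb* at 190.0, *Unc5d* at 0.146 and *Neurod1* at 0.796. KO1, with 44 progenitors of 332 kept cells, was mixed. It had *Actb* at 44.2, *Zbtb20* at 16.8 and *Unc5d* at 2.08, within or above the range of WT2, WT3 and WT4, but *Igfbpl1* at 4.21 and *Itm2b* at 0.893, below both compared KO libraries, and *Igsf8* at 0.903 and *Elavl2* at 3.56, between the genotypes.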
